A study of Mus musculus with 22 samples.

Results

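The endocannabinoid genes followed here are the cannabinoid receptor gene Cnr1 and 7 genes for enzymes that make or remove its ligands: Napepld, Faah, Dagla, Daglb, Mgll, Abhd6 and Abhd12. They were chosen by name, as the 8 entries of the deposited count table with these symbols, out of 24061 genes. All 8 passed the filter on low counts, and 14564 genes in all were tested. Messenger RNA was counted in 22 libraries of bulk nucleus accumbens, a ventral striatal region that takes part in reward. The mice were conventionally raised C57BL/6J males, 7 to 9 weeks old. Those called water mice here carried a normal microbiome, and those called antibiotic mice had theirs depleted by nonabsorbable antibiotics, which stay in the gut. Each arm was given saline or morphine at 20 mg/kg per day for 7 days. Saline groups held 6 libraries each, for water and for antibiotic mice, and morphine groups 5 each. The titles number the samples without saying whether each is 1 animal or a pool, so the p-values rest on the spread between samples, which may be technical.

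Endocannabinoids are lipid messengers that neurons make on demand and release from the postsynaptic side. They act back on CB1, the receptor that Cnr1 encodes, which sits mostly on presynaptic terminals and lowers transmitter release. The ligand 2-arachidonoylglycerol (2-AG) is made by the diacylglycerol lipases DAGLalpha (Dagla) and DAGLbeta (Daglb), and is hydrolysed by monoacylglycerol lipase (Mgll) and, to a lesser extent, by ABHD6 and ABHD12. Anandamide is made from N-acyl phosphatidylethanolamines, one route being NAPE-PLD (Napepld), and is hydrolysed by fatty acid amide hydrolase (Faah). In the striatum, CB1 is found on projection neurons, on interneurons and on the terminals of cortical inputs.

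The sequences before the starts of Mgll and Daglb are shown because these genes moved in opposite directions with morphine in antibiotic mice, as described below. They come from RefSeq on GRCm38.p6, on the plus strand, at chr6:88724162-88724411 for Mgll and chr5:143464243-143464483 for Daglb. The build the authors aligned to is not given in the sources used here. Both windows lie upstream of the RefSeq gene and outside annotated coding exons, and the Mgll window overlaps exons of the antisense transcript Gm26588. Capitals mark every match, on either strand, to one of 7 short motifs.
Mgll: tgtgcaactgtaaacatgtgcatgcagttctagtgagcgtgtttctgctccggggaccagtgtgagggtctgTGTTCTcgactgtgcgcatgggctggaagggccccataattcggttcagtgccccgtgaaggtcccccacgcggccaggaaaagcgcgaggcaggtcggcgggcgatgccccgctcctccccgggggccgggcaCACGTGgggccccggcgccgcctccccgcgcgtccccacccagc
Daglb: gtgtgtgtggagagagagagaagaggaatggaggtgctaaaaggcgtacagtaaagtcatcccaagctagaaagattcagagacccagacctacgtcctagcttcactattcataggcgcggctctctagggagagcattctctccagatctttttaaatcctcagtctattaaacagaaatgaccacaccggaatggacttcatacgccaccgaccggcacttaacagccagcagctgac

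The Mgll window is 250 bases long with a GC content of 68%, and the Daglb window 241 bases with 48.5%. The Mgll window held 1 E-box (CACGTG), a motif found in 6.02% of the 32851 RefSeq windows of 250 bases. It also held 1 glucocorticoid receptor hexamer (AGAACA, read here from the opposite strand as TGTTCT), found in 16.1% of those windows. Neither window held a TATA box (TATAAA, 12.4% of windows), a CCAAT box (CCAAT, 33.8%), a GC box (GGGCGG, 32.7%), a cAMP response element (TGACGTCA, 1.55%) or a full glucocorticoid response element (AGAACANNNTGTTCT, 0.00913%), which contains that hexamer on both strands. The Daglb window held none of the 7, but it is shorter than the windows behind these shares. A match is a run of letters and does not show that a factor binds there. Windows were also read for Napepld, which held no match, and Abhd6, which held 1 CCAAT box.

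Total counts ran from 11789713 to 19755139 per library, of which 9357299 to 15330947 fell in genes. Markers of striatal projection neurons were abundant, all 11 were tested, and their sum ran from 3150 to 7480 CPM (counts scaled to the library's total in genes and its TMM factor). Libraries stood apart in 2 cases: library 5 of antibiotic mice given saline and library 4 of water mice given morphine had the lowest sums of these markers in their groups (3150 and 3940 CPM) and the highest sums of 10 cortical and septal neuron markers (1600 and 1300 CPM, against group medians of 510 and 267). At the low end, the cortical and septal sum was 201 and 216 CPM in libraries 6 and 2 of water mice given morphine. It was 237 CPM in library 4 of water mice given saline. Below, the libraries that stood apart are only the 2 with the high sums. Markers of microglia and the trend of expression with transcript length also moved with the groups, and their values are given beside the results below. In bulk tissue, fewer cells of a type and less RNA per cell cannot be told apart.

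Per transcript length, the 8 genes spanned a wide range of levels. Abhd12 had the highest level, averaging 166 CPM per kb of transcript over the 22 libraries (SD 12.9), followed by Mgll with 78 CPM per kb (SD 8.33). Abhd6 averaged 22.8, Dagla 18.6 and Cnr1 15.2 CPM per kb, Faah 9.48, Daglb 8.17 and Napepld 2.12. The removal enzymes of 2-AG thus averaged above its synthesis enzymes on this scale. Each gene lay above the next within the same library in at least 19 of the 22, except for Faah and Daglb: Faah was above Daglb in 12 of 22 libraries, so these neighbours did not differ beyond their spread. Abhd6 was above Dagla in 21 and Dagla above Cnr1 in 19.

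**Figure D1:**
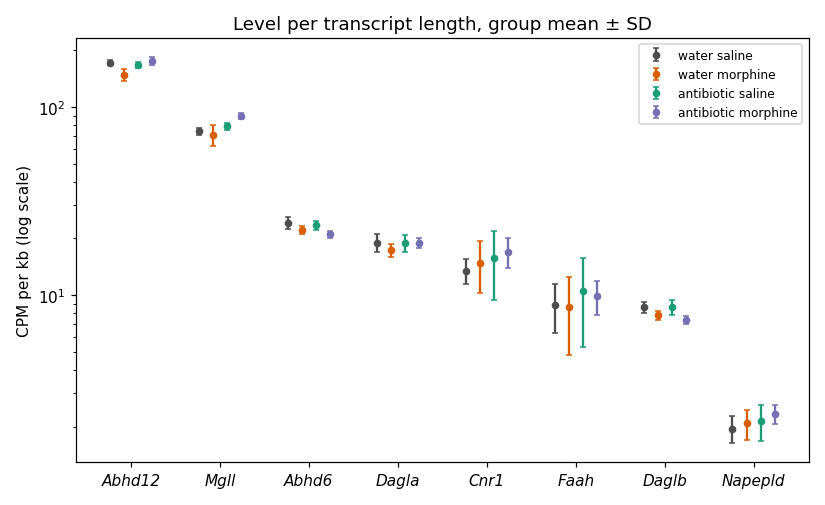
Level of each gene in CPM per kb of its longest coding transcript (log axis), with the genes ordered by their mean over 22 libraries. Points are group means and bars the SD over 5 or 6 libraries; Abhd12 and Mgll stand above the other 6 genes in every group, and the bars of Faah and Daglb overlap.

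By the main test, Abhd12 was lower with morphine in water mice, and in antibiotic mice Mgll was higher and Daglb lower with morphine. The last 2 calls lay close to the threshold. Without 1 library, that of Mgll was lost in 9 of 11 fits and that of Daglb in 3 of 11. For neither gene did the morphine change differ between antibiotic and water mice at the threshold. Under morphine, antibiotic mice had more Mgll and Abhd12 than water mice, 1.26-fold and 1.19-fold. Antibiotics under saline gave no call among the 8. A gene was called when its p-value from the edgeR quasi-likelihood test, adjusted by Benjamini-Hochberg over all 14564 genes, was under 0.05. Cnr1, Napepld, Faah, Dagla and Abhd6 were called in none of the 4 comparisons. These comparisons share groups, since each group enters 2 of them, so their calls are not independent of each other.

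Each count of members called is given beside the share of all 14564 genes called. In water mice, 1 of 8 members was called with morphine (lower), where 6.58% of all genes were called and 2.67% called lower, and 0 of 8 had groups that did not overlap (5.84% of all genes). In antibiotic mice, 2 of 8 were called with morphine, 1 in each direction, where 13.0% of genes were called, 6.43% higher and 6.62% lower; the same 2 had groups that did not overlap (6.30% of all genes). Antibiotics against water under saline gave 0 of 8, where 1.41% of genes were called (0.542% higher and 0.865% lower), and 0 of 8 did not overlap (1.64% of all genes). An unadjusted edgeR p under 0.05 and DESeq2 also gave 0 of 8 there, but the 1.41% is not the share for these. Antibiotics against water under morphine gave 2 of 8, both higher, where 18.0% of genes were called, 8.42% higher and 9.58% lower; both had groups that did not overlap (13.1% of all genes). For the difference between the morphine changes of antibiotic and water mice, 1 of 8 was called (Abhd12, higher), where 0.467% of genes were called, 0.220% higher and 0.247% lower. Counts of 0 to 2 among 8 genes are too small to be set apart from the share over all genes. They are therefore not read as a result about these genes, and neither are the counts of groups that did not overlap. The median log2 change of the 8 was -0.0951, 0.0354, 0.0492 and 0.167 in those 4, in the order given, against -0.000167, -0.00242, 0.00383 and 0.000836 over all genes.

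**Figure D2:**
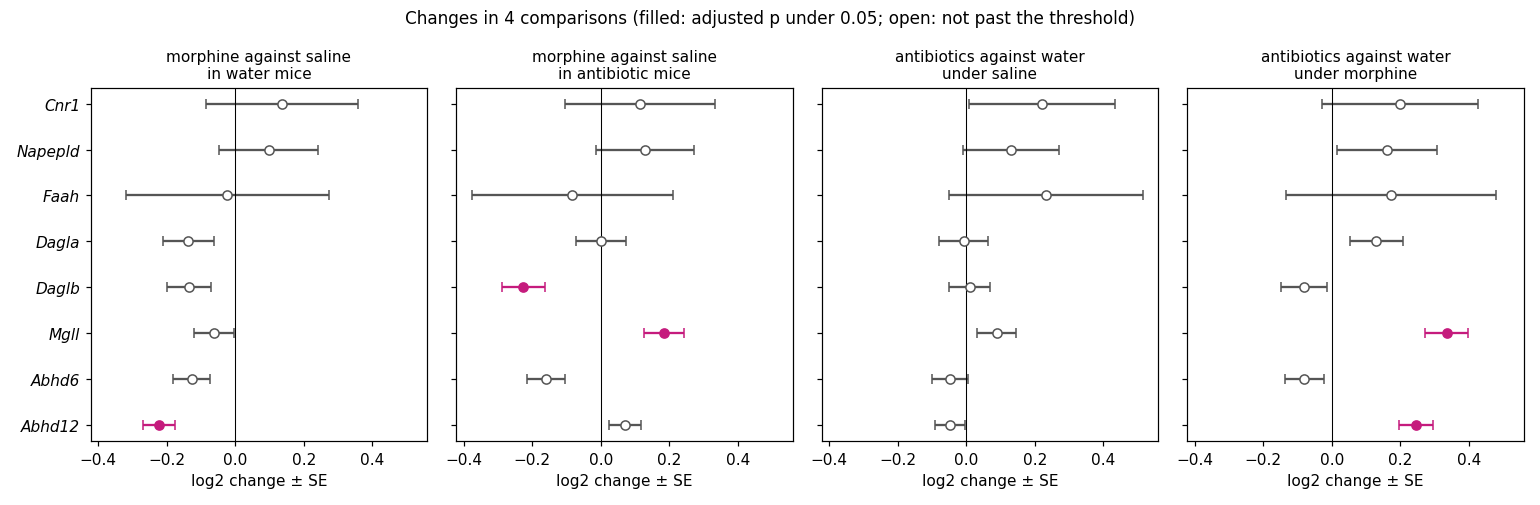
Log2 change (x axis) of each of the 8 genes in 4 comparisons, with bars of 1 standard error. Filled points passed an adjusted p of 0.05 in the edgeR quasi-likelihood test: Abhd12 in water mice given morphine, Daglb and Mgll in antibiotic mice given morphine, and Mgll and Abhd12 for antibiotics under morphine.

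Cnr1, the receptor gene, varied more inside groups than between them. It ran from 56.7 through a median of 80.1 to 90.1 CPM in the 6 libraries of water mice given saline. In water mice given morphine the 5 libraries held 68, 69.8, 77.6, 82.1 and 131 CPM. Antibiotic mice given saline ran from 67.4 through a median of 74.3 to 161 CPM, and antibiotic mice given morphine held 81.5, 87, 97.3, 101 and 127 CPM. The groups overlapped in every comparison, and the values of 131 and 161 CPM belong to the libraries that stood apart. The log2 change was 0.14 ± 0.221 (standard error) with morphine in water mice and 0.11 ± 0.22 in antibiotic mice, with adjusted p of 0.774 and 0.792. For antibiotics it was 0.22 ± 0.212 under saline (adjusted p = 0.634) and 0.20 ± 0.229 under morphine (adjusted p = 0.6).

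Without those 2 libraries, a choice made after seeing the data, the Cnr1 difference between antibiotic and water mice under morphine was 0.41 ± 0.143 on the log2 scale and passed (adjusted p = 0.0488). Leaving out 1 library at a time gave an adjusted p of 0.204 to 0.851 for it. With the cortical and septal marker score of each library (the mean centred log2 CPM of the 10 markers) as a covariate the value was -0.11 ± 0.15 (adjusted p = 0.644). The sign of the Cnr1 difference thus differed between these settings, and the score ran higher in antibiotic mice given morphine (mean 0.417, SD 0.541) than in water mice given morphine (mean -0.539, SD 1.13). Proteins that bind CB1 gave no call: Cnrip1, which binds its C-terminal tail, averaged 47.7 ± 7.51 CPM (SD, n = 5) in water mice and 52.1 ± 5.71 (n = 5) in antibiotic mice under morphine, and Sgip1, an endocytic adaptor that also binds it, 206 ± 12.8 and 220 ± 11.6.

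The anandamide enzymes showed no call. Faah, which degrades anandamide, ran from 24 through a median of 33.5 to 51.6 CPM in water mice given saline and from 25.1 through 34 to 78.6 CPM in antibiotic mice given saline. It held 24.1, 26.1, 26.1, 30.1 and 59.2 CPM in water mice given morphine and 31.2, 31.4, 35.4, 41.6 and 48.9 CPM in antibiotic mice given morphine. The groups overlapped, and the values of 78.6 and 59.2 CPM again belong to the libraries that stood apart. Its log2 changes ranged from -0.0833 ± 0.294 (morphine in antibiotic mice) to 0.23 ± 0.283 (antibiotics under saline), and no adjusted p was under 0.724. Faah had the widest spread of the 8 genes, with a coefficient of variation of 20% to 49.8% over the groups, and its standard errors of 0.283 to 0.306 were close to the largest log2 change of Mgll given below. Napepld, which releases anandamide from its membrane precursors, averaged 7.71 ± 1.25, 8.22 ± 1.49, 8.48 ± 1.85 and 9.23 ± 1.05 CPM in the groups in the order water with saline, water with morphine, antibiotics with saline and antibiotics with morphine. Its log2 changes lay between 0.0971 ± 0.144 and 0.16 ± 0.147, with adjusted p of 0.491 or more.

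**Figure D3:**
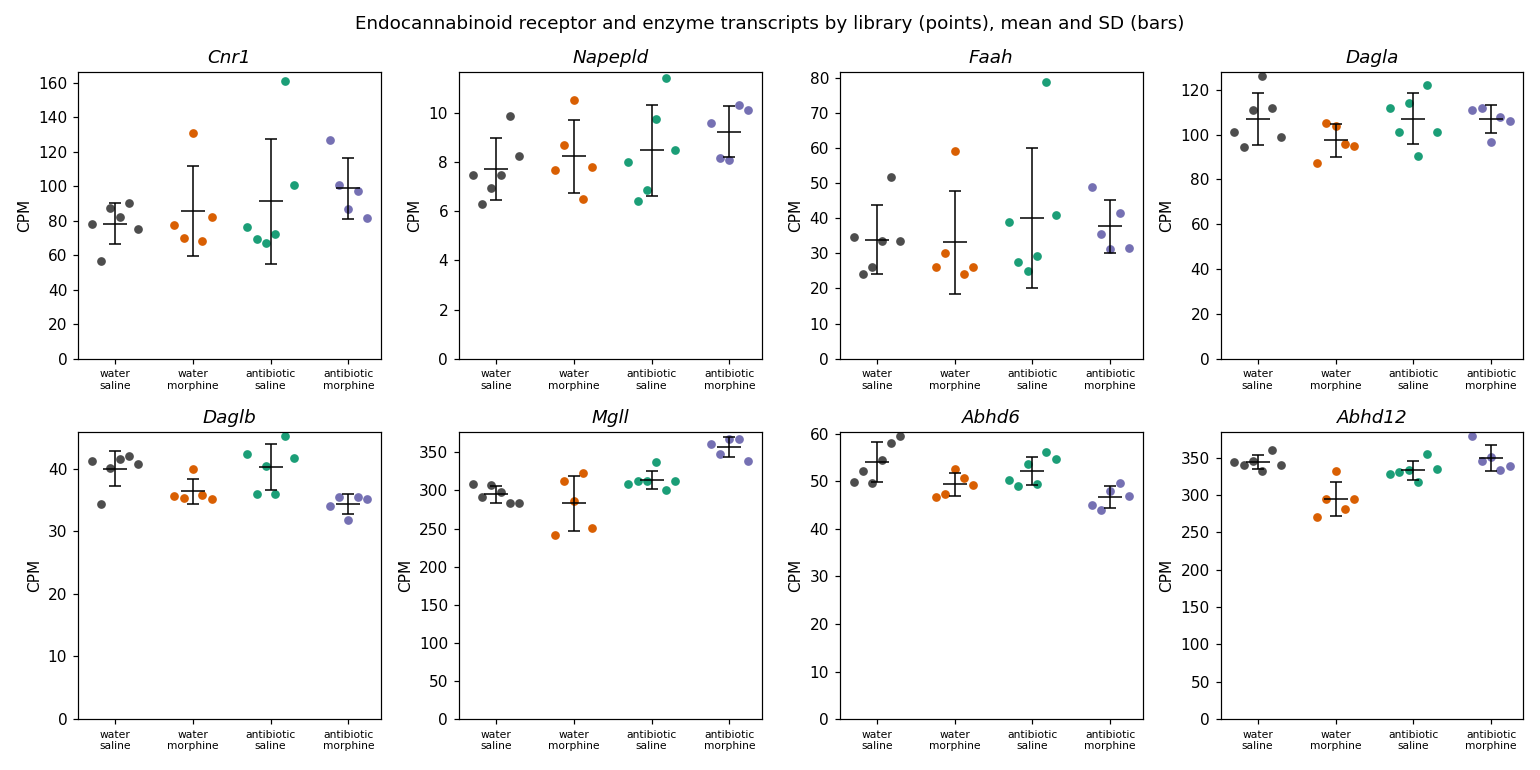
CPM of the 8 genes (y axes, from 0) in each of 22 libraries, by group. Points are libraries and bars the group mean and SD; Cnr1 and Faah each show 1 high library in the groups of water mice given morphine and antibiotic mice given saline, and Mgll in antibiotic mice given morphine (338 to 368 CPM) lies above the other 3 groups (242 to 337 CPM).

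The synthesis enzymes of 2-AG differed from each other. Daglb ran from 36 through a median of 41.1 to 45.2 CPM in antibiotic mice given saline, and held 31.8, 34.1, 35.2, 35.5 and 35.5 CPM in antibiotic mice given morphine. All 5 morphine libraries lay below all 6 saline libraries. Daglb fell by 14.5% with morphine in these mice (log2 change -0.23 ± 0.0635, edgeR adjusted p = 0.0216). In water mice it ran from 34.4 through 40.9 to 42.1 CPM with saline and held 35.2, 35.4, 35.6, 35.8 and 40 CPM with morphine, groups that overlapped. The log2 change there was -0.135 ± 0.0632 (adjusted p = 0.204), and the difference between both morphine changes was -0.0911 ± 0.0895 (adjusted p = 0.729).

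The Daglb call lay close to the threshold. It was lost without library 1 (adjusted p = 0.055) or library 5 (0.0502) of antibiotic mice given saline or library 3 of antibiotic mice given morphine (0.0701), and held in the other 8 of 11 such fits. It was also lost in a fit of only the 2 groups compared (0.0515). Exons of Daglb overlap those of Rac1, a small GTPase gene on the opposite strand, by 2309 bases, and no source used here states the strandedness, so reads of that stretch cannot be told apart. Rac1 averaged 304 ± 6.71 CPM with morphine (n = 5) and 322 ± 16 with saline (n = 6) in antibiotic mice, a log2 change of -0.0818 ± 0.043 (adjusted p = 0.223). Dagla, the main synthesis enzyme of 2-AG in the adult brain, averaged 107 ± 11.6 (n = 6), 97.4 ± 7.26 (n = 5), 107 ± 11.4 (n = 6) and 107 ± 6.2 CPM (n = 5) in the group order used for Napepld. Its log2 change was -0.14 ± 0.0746 with morphine in water mice (adjusted p = 0.279), 0.000387 ± 0.0744 with morphine in antibiotic mice (adjusted p = 0.998) and 0.13 ± 0.0776 for antibiotics under morphine (adjusted p = 0.26).

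Mgll, the main 2-AG hydrolase, was highest in antibiotic mice given morphine. It ran from 283 through a median of 294 to 309 CPM in water mice given saline and from 301 through 313 to 337 CPM in antibiotic mice given saline. Water mice given morphine held 242, 251, 286, 312 and 323 CPM, and antibiotic mice given morphine 338, 348, 361, 368 and 368 CPM. Every library of the last group lay above every library of the other 3, while water mice given morphine had the widest spread (coefficient of variation 12.7%, against 3.68% to 3.85% in the other groups). The values of 242 and 251 CPM belong to libraries 2 and 6 of water mice given morphine, which had the lowest cortical and septal marker sums of all 22.

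Under morphine, Mgll was 1.26-fold higher in antibiotic mice than in water mice (log2 change 0.335 ± 0.0621, edgeR adjusted p = 0.000617). This call held in each of the 10 fits that left out 1 library, with adjusted p from 0.000179 to 0.0028. Morphine raised Mgll 1.14-fold in antibiotic mice (log2 change 0.18 ± 0.0593, adjusted p = 0.0414), from 314 ± 12.1 (SD, n = 6) to 357 ± 13.1 CPM (n = 5), but this call was lost in 9 of 11 fits without 1 library (adjusted p 0.0289 to 0.0975). It held only without library 4 of antibiotic mice given saline (0.0289) or library 5 of antibiotic mice given morphine (0.0483), and it was also lost with no filter on low counts (0.0565). In water mice the log2 change with morphine was -0.0623 ± 0.0595 (adjusted p = 0.578). The difference between both morphine changes, 0.25 ± 0.0841, did not pass (adjusted p = 0.203), so a larger effect of morphine on Mgll in antibiotic mice was not shown. Antibiotics under saline gave 0.0887 ± 0.0568 (adjusted p = 0.439). Exons of Mgll overlap 167 bases of Gm26588, an antisense gene not used here, with the same limit on strand.

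Abhd12, a hydrolase of lysophosphatidylserine that also cleaves 2-AG, was lowest in water mice given morphine. These 5 libraries held 271, 282, 295, 295 and 332 CPM, against 332 through a median of 343 to 361 CPM in water mice given saline. The groups met at 332 CPM, the value of the library of water mice given morphine that stood apart. Antibiotic mice ran from 317 through 332 to 355 CPM with saline and held 334, 339, 346, 351 and 379 CPM with morphine. The 5 libraries of antibiotic mice given morphine all lay above the 5 of water mice given morphine.

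Abhd12 fell by 14.3% with morphine in water mice (log2 change -0.22 ± 0.0473, edgeR adjusted p = 0.00828), a call that held in each of 11 fits without 1 library (adjusted p 0.0015 to 0.0367). In antibiotic mice the log2 change with morphine was 0.0705 ± 0.0471 (adjusted p = 0.353). The difference between both changes was 0.29 ± 0.0667 and passed narrowly (adjusted p = 0.048). It was lost in 20 of 22 fits without 1 library (adjusted p 0.0172 to 0.116) and held only without library 5 of antibiotic mice given saline (0.0369) or library 4 of water mice given morphine (0.0172). Without both of these, it was 0.35 ± 0.0587 (adjusted p = 0.0109), while with RLE in place of TMM factors or with no filter it did not pass (0.0583 and 0.0694). Under morphine, Abhd12 was 1.19-fold higher in antibiotic than in water mice (log2 change 0.25 ± 0.0492, adjusted p = 0.00124; 0.000151 to 0.00637 without 1 library). Antibiotics under saline gave -0.0476 ± 0.045, which did not pass.

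A trend with transcript length moved with morphine beside these calls. For each library, centred expression (log2 CPM) was regressed on transcript length (log2). The slope averaged -0.0507 in water mice given saline (range -0.0781 to -0.0111) and 0.0384 in water mice given morphine (0.028 to 0.0468). It averaged -0.0177 (-0.0532 to 0.0479) and 0.0436 (0.0255 to 0.055) in antibiotic mice. With this slope as a covariate, the Abhd12 value in water mice was -0.22 with an adjusted p of 0.673, and no gene at all was called in that comparison. The slope ranges of water mice did not overlap between saline and morphine, so slope and morphine cannot be told apart there. The calls lost in that fit are therefore no test of the part of the slope. The Daglb and Mgll calls with morphine in antibiotic mice were also lost (log2 changes -0.30 and 0.15, adjusted p 0.0829 and 0.44). Under morphine, the differences between antibiotic and water mice stayed at 0.33 for Mgll (adjusted p = 0.000772) and 0.25 for Abhd12 (adjusted p = 0.00136). The slopes of these 2 groups overlapped and had similar means, so the covariate could move this comparison little. The calls kept there are no test of the slope either.

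Markers of other cells also moved between groups, in comparisons with and without a call among the 8. Of 9 microglia markers, 8 fell with antibiotics under morphine, and their sum ran from 402 to 470 CPM in antibiotic mice and from 507 to 573 CPM in water mice. With morphine, 4 of 9 fell in water mice and 7 of 9 in antibiotic mice, and sums in saline libraries ran from 593 to 640 and from 475 to 573 CPM. Of 8 mature oligodendrocyte markers, 3 fell with morphine in water mice, 1 fell and 2 rose with morphine in antibiotic mice, and 2 fell with antibiotics under morphine. Of 8 astrocyte markers, 0, 1 and 3 fell in these comparisons, of 5 endothelial markers 2, 1 and 1, and of 6 interneuron markers 2, 0 and 0. In water mice, the interneuron sum ran from 282 to 488 CPM with morphine and from 376 to 465 CPM with saline, and the endothelial sum from 182 to 203 and from 210 to 228 CPM. With antibiotics under saline, where none of the 8 genes was called, 5 of 9 microglia and 6 of 8 mature oligodendrocyte markers fell. No astrocyte, endothelial or interneuron marker was called there. Of all genes, 2.67% were called lower with morphine in water mice and 6.62% with morphine in antibiotic mice. For antibiotics, that share was 9.58% under morphine and 0.865% under saline. Over all 22 libraries, group means not subtracted, r with the microglia marker score was -0.669 (Mgll), -0.173 (Abhd12) and 0.471 (Daglb). In that gene order it was -0.696, -0.272 and 0.442 for astrocytes and -0.589, 0.035 and 0.332 for mature oligodendrocytes. For interneurons it was 0.217, 0.635 and 0.6, and for endothelial cells -0.245, 0.158 and 0.317. The part of these cells in the Mgll, Abhd12 and Daglb results was not tested.

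Abhd6, a membrane-bound 2-AG hydrolase, gave no call in the main test. It ran from 49 through a median of 52 to 56.1 CPM in antibiotic mice given saline and held 44, 45.1, 46.9, 48 and 49.6 CPM in antibiotic mice given morphine, groups that overlapped slightly. Its log2 change was -0.16 ± 0.0552 there (adjusted p = 0.0591), and leaving out 1 library gave an adjusted p of 0.0473 to 0.131. It passed with DESeq2 (0.0477), with the cortical and septal or the projection neuron score as a covariate (0.0383 and 0.0307), and without library 4 of antibiotic mice given saline (0.0473). In water mice, where it averaged 54 ± 4.2 CPM with saline (n = 6) and 49.4 ± 2.37 with morphine (n = 5), the log2 change was -0.13 ± 0.0549 (adjusted p = 0.161). All 5 morphine libraries of each arm lay below the mean of their saline group.

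Ratios of removal to synthesis transcripts were also taken inside each library, where scaling cancels. The ratio of Mgll to Daglb in CPM per kb averaged 8.64 ± 0.711 (SD, n = 6) in water mice given saline, 9.07 ± 1.22 (n = 5) with morphine, 9.17 ± 1.15 (n = 6) in antibiotic mice given saline and 12.1 ± 0.907 (n = 5) with morphine. It ran from 11.2 to 13.5 in the last group, above the 7.75 to 10.9 of the other 3. The ratio of Mgll to Dagla averaged 4.74 ± 0.395 (n = 5) in antibiotic mice given morphine and 4.1 ± 0.411 (n = 5) in water mice given morphine, with ranges of 4.39 to 5.38 and 3.74 to 4.77 that overlapped. The ratio of Dagla to Daglb was 2.56 ± 0.0886 in antibiotic mice given morphine and 2.19 ± 0.134 in antibiotic mice given saline (2.48 to 2.69 against 1.99 to 2.32). For anandamide, the ratio of Faah to Napepld averaged 4.48 ± 0.578 (n = 6), 4.05 ± 1.01 (n = 5), 4.74 ± 1.39 (n = 6) and 4.23 ± 0.751 (n = 5) in the group order used for Napepld, with ranges that overlapped. These ratios were chosen after the values had been seen and are a description, with no test.

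Inside groups, several of the 8 genes varied together, Cnr1 and Faah most closely. Over the 22 libraries, after subtracting group means, their log2 CPM had a Pearson's r of 0.896 (permutation p = 1e-05, the smallest that 100000 permutations can give, adjusted over 28 pairs 0.00014) and a Spearman's rho of 0.816 (permutation p = 2e-05, adjusted 0.00028). Without the 2 libraries that stood apart, r was 0.758. Napepld and Faah had an r of 0.814 (permutation p = 1e-05, adjusted 0.00014), a rho of 0.762 (permutation p = 7e-05, adjusted 0.000653) and an r of 0.709 without the 2 farthest libraries. Dagla and Daglb had an r of 0.703 (permutation p = 2e-04, adjusted 0.00112), a rho of 0.639 (permutation p = 0.0018, adjusted 0.0101) and an r of 0.671 without the 2 farthest. Pairs across the ligands were as close: r was 0.741 for Faah and Daglb (permutation p = 0.00012, adjusted 0.00112; rho 0.797, permutation p = 2e-05, adjusted 0.00028; r 0.61 without the 2 farthest). It was 0.72 for Cnr1 and Daglb (permutation p = 0.00016, adjusted 0.00112; rho 0.679, permutation p = 0.00083, adjusted 0.00581; r 0.574 without the 2 farthest). Abhd12 had an r of 0.718 with Faah and 0.71 with Cnr1 (permutation p = 0.00045 and 0.00051, both adjusted 0.00178), with rho of 0.438 and 0.569 (permutation p = 0.0427 and 0.00675, adjusted 0.0919 and 0.0262) and r of 0.495 and 0.499 without the 2 farthest. Mgll did not follow the others: its r with the 7 other genes ran from -0.155 to 0.0683, with adjusted permutation p of 0.616 or more. The libraries are shared by all pairs. Values were permuted over all 22 libraries and not inside groups, after group means had been subtracted, and the groups differ in spread. The permutation p-values are therefore approximate and may be too small. Cnr1, Faah and Napepld (11.4 and 10.5 CPM) were each highest of their group in the 2 libraries that stood apart in neuron markers. Over all 22 libraries, group means not subtracted, r with the interneuron score was 0.796 (Cnr1), 0.884 (Faah) and 0.714 (Napepld). It was 0.769, 0.836 and 0.721 with the cortical and septal score and -0.821, -0.813 and -0.809 with the projection neuron score. Without the 2 libraries these became 0.735, 0.885 and 0.617, then 0.67, 0.785 and 0.616, then -0.606, -0.576 and -0.757. The part of those marker levels in the correlations was not tested. Genes outside the 8, picked as most alike from 9920, lay closer still. With group means subtracted, r was 0.963 for Cnr1 and Dlgap1 and 0.98 for Faah and Olfm1. No share over all gene pairs was taken, so the correlations are not shown to be particular to the 8.

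**Figure D4:**
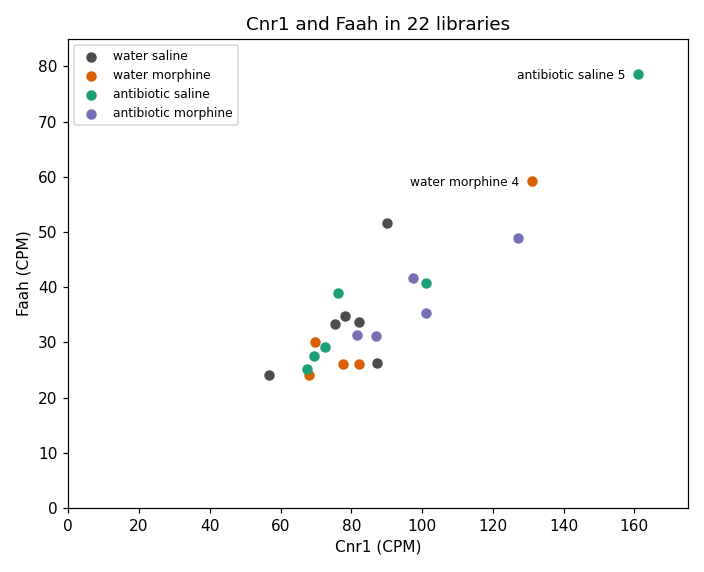
Faah against Cnr1 in CPM for each of 22 libraries, coloured by group. The library of antibiotic mice given saline at 161 and 78.6 CPM and that of water mice given morphine at 131 and 59.2 CPM lie beyond the rest, and the other 20 rise together.

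The genes whose log2 CPM was most like each member's across the 22 libraries were taken from those averaging at least 10 CPM, as a description with no test. For Cnr1 they were Dlgap1 (r = 0.956), Syt1 (0.953) and Sh3gl2 (0.949), and for Faah Olfm1 (0.98), Ube2ql1 (0.965) and Dnm1 (0.963). For Napepld they were Syt17 (0.879), Doc2a (0.873) and Ccdc136 (0.866), for Dagla Kctd17 (0.826), E2f1 (0.825) and Brsk1 (0.822), and for Daglb Capn1 (0.899), Tubg1 (0.886) and Tmem184b (0.877). For Mgll they were Orai2 (0.888), Plat (0.871) and Mknk2 (0.866), with r of 0.668, 0.684 and 0.667 once group means were subtracted. For Abhd6 they were Banp (0.818), Usp10 (0.814) and Hdac5 (0.811), and for Abhd12 Zbtb22 (0.881), Wsb2 (0.868) and Trnp1 (0.858), with r of 0.807, 0.706 and 0.575 once group means were subtracted.

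Of 40 other genes of the pathway, 31 were tested. None was called with morphine in water mice or with antibiotics under saline, where 6.58% and 1.41% of all genes were. With morphine in antibiotic mice 1 rose and 3 fell, so 4 of 31 were called where 13.0% of all genes were. With antibiotics under morphine 2 rose and 4 fell, so 6 of 31 were called where 18.0% of all genes were. Both of these shares are close to those of all genes. For the difference between the morphine changes, 1 of 31 was called (Fabp7, lower), where 0.467% of all genes were. The other receptors that were not tested, Cnr2, Gpr18, Gpr119 and Trpv1, were at or near 0: Cnr2, the CB2 receptor of immune cells, averaged 0.259 to 0.513 CPM over the groups and the other 3 at most 0.147. Gpr55, an orphan receptor that responds to cannabinoid ligands, averaged 4.19 ± 0.669 CPM (n = 6) in water mice given saline and was called in no comparison. Gdpd3, Plaat5, Ptpn22, Alox15 and Ces1d were also too low to be tested.

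Pla2g4e, a calcium-dependent N-acyltransferase that makes the precursors on which NAPE-PLD acts, was highest in antibiotic mice given morphine. It averaged 4.93 ± 0.651 CPM (n = 6) and 5.87 ± 1.72 (n = 5) in water mice with saline and morphine, and 7.57 ± 1.62 (n = 6) and 11.6 ± 2.15 (n = 5) in antibiotic mice. It rose 1.97-fold with antibiotics under morphine (log2 change 0.98 ± 0.177, adjusted p = 0.000491) and 1.54-fold with morphine in antibiotic mice (0.62 ± 0.167, adjusted p = 0.0173). Under saline, antibiotics gave 0.61 ± 0.173 (adjusted p = 0.072), and the difference between both morphine changes was 0.37 ± 0.248 (adjusted p = 0.578). Fabp7, a fatty acid binding protein that carries anandamide, fell by 50.3% with morphine in antibiotic mice, from 22 ± 3.9 to 10.9 ± 1.49 CPM (log2 change -1.01 ± 0.118, adjusted p = 2.98e-05). It fell by 62.2% with antibiotics under morphine (-1.40 ± 0.12, adjusted p = 3.25e-07), and the difference between both morphine changes was -1.15 ± 0.16 (adjusted p = 0.00163). Fabp7 is also a gene of astrocytes and progenitors. Of the 8 astrocyte markers, 3 fell with antibiotics under morphine and 1 with morphine in antibiotic mice. Under morphine their sum ran from 4000 to 4440 CPM in antibiotic mice and from 4190 to 4620 CPM in water mice, ranges that overlapped. The part of astrocytes in the Fabp7 change was not tested.

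Other pathway calls were smaller or rested on few counts. Alox12, a lipoxygenase that can oxidise endocannabinoids, averaged 0.464 ± 0.262 CPM (n = 5) in antibiotic mice given morphine, 1.06 ± 0.378 (n = 6) with saline and 1.12 ± 0.225 (n = 5) in water mice given morphine. Its log2 changes of -1.13 ± 0.357 and -1.21 ± 0.358 passed (adjusted p = 0.0384 and 0.0208). Gnai2, an inhibitory G protein subunit through which CB1 can signal, fell by 14.8% with morphine in antibiotic mice (log2 change -0.23 ± 0.054, adjusted p = 0.00707), and its change for antibiotics under morphine was -0.19 ± 0.0562 (adjusted p = 0.0213). Gna11, a G protein gene among those that drive 2-AG synthesis, rose with antibiotics under morphine (log2 change 0.16 ± 0.036, adjusted p = 0.00285).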

How the data were processed

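RNA of mouse nucleus accumbens was extracted with TRIzol and copied with a SMARTer kit, per the labels' protocols. The submitters' processing notes name STAR 2.4.0, FastQC and edgeR. Read counter, build, annotation and strandedness: not given in the sources used here. The molecule label is polyA RNA, while the protocol starts cDNA synthesis from total RNA. The authors deposited raw read counts per gene, which were used throughout, and a second, normalised table not used here. Entries that name no gene held 20.6% to 26.4% of a library and were removed.

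The quasi-likelihood test of edgeR 4.0.16 (R 4.3.3) was used, with its robust option. Genes passing filterByExpr by group were TMM-scaled and entered 1 model of the 4 groups. Tests were two-sided, with Benjamini-Hochberg adjustment over all 14564 genes. The standard error is the log2 change divided by the square root of F. CPM uses gene counts and TMM factors, log2 CPM a prior count of 2, and CPM per kb the longest coding transcript in GENCODE on GRCm38. Lengths matched 95.4% of tested genes. Marker scores are means of gene-centred log2 CPM. DESeq2 1.42.0 and other settings were alternatives, and the pipeline was tested on simulated counts. The rule for named genes was the 8 members and a list of 40 pathway genes, of which Plaat1, Plaat3, Plaat5 and Drd1 were matched under older symbols. Of the pathway genes that passed, 1 is counted but not reported here by name. Within groups, counts of 50 library pairs differed by 3.17 to 23 times sampling noise, more than copies of 1 library would. This does not tell whether samples came from separate animals, and pairs across groups were not checked. Labels give no batch.

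The members and lists were chosen with earlier results of these data known. Chosen after the values had been seen were the ratios, the 28 pairs, the motifs, the rule for upstream windows and which were printed, the exclusion of 2 libraries together and the projection neuron score as a covariate. In the fits without 1 library, every group kept at least 4 samples.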

Additional observations from a re-analysis of the deposited data

Results flagged for a closer look

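Several single libraries lay far from the rest of their group, by Dixon's test at the 95% level over 32 sets of 1 gene in 1 group. Chance gives about 1 in 20 such sets, and 7 of 32 were found. The genes share their libraries, and several flags fall in the same library, so the sets are not independent. The count therefore does not show an excess over chance. Cnr1 was high in library 4 of water mice given morphine (131 CPM) and in library 5 of antibiotic mice given saline (161 CPM), and Faah was high in the same libraries (59.2 and 78.6 CPM). These libraries also had the lowest projection neuron scores (-0.48 and -0.856) and the highest cortical and septal scores (1.22 and 1.47) of their groups. Daglb was high in library 4 of water mice given morphine (40 CPM) and low in library 4 of water mice given saline (34.4 CPM). Mgll was high in library 4 of antibiotic mice given saline (337 CPM).

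The morphine changes of Abhd12 differed between antibiotic and water mice by 0.293 on the log2 scale in the edgeR test of the difference itself (adjusted p = 0.048, over 5 or 6 libraries a group). This call was lost in 20 of 22 fits without 1 library (adjusted p up to 0.116), with RLE factors (0.0583) and with no filter (0.0694).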

How the results depend on the processing

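Mgll and Abhd12 stayed higher with antibiotics under morphine in every setting run for that comparison, and adjusted p did not exceed 0.0153. Other calls moved. Calls were gained for Daglb with antibiotics under morphine with the cortical score (-0.17, adjusted p = 0.0337). Below, W is morphine in water mice, A morphine in antibiotic mice, S antibiotics under saline, M antibiotics under morphine and D the difference of the morphine changes. Members called fell to 0 in D with RLE factors, to 1 in A and 0 in D without the filter, to 1 in A in 2-group fits, to 0 in W, A and D with the length slope, and to 1 in A without the 2 libraries that stood apart. All genes called went to 420 (S) and 181 (D) with DESeq2, 1187 (A) and 67 (S) in 2-group fits, 0 (W), 141 (A) and 45 (S) with the length slope, 138 (D) with the cortical score, 129 (S) and 145 (D) without the 2 libraries, and 124 (S) and 163 (D) with the projection score. The cause was not tested.

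Replicate numbers did not pair the samples (r of same-numbered libraries -0.536 to 0.41). With the replicate number as a block, members called fell to 0 in W, A and D, and all genes called to 281 (W), 105 (S) and 10 (D). Abhd12 in W had an adjusted p of 0.0823, and its D value was 0.27 (0.193). Signs turned under the block for Faah in W (0.191), Abhd6 in S (0.0536) and Napepld in D (-0.136).

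Without 1 library, members called ran from 0 to 3 in A and 0 to 1 in D, and all genes from 509 to 880 (W), 1084 to 2048 (A), 48 to 409 (S) and 28 to 100 (D).

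Of 352 log2 changes under other settings, 39 turned sign, none of them called in the main test. Dagla in A was -0.00537 (RLE), -0.00535 (DESeq2), -0.00281 (no filter), -0.000529 (2 groups), -0.0593 (length slope), -0.0138 (cortical score) and -0.000758 (projection score). With the length slope, Cnr1 was -0.229 (W), -0.128 (A) and 0.101 (D), and Daglb -0.0333 (S). With the cortical score, Faah was 0.0858 (W), -0.0517 (S) and -0.227 (M), Daglb -0.0345 (S), Cnr1 -0.113 (M) and Napepld -0.0272 (M) and -0.048 (D). Without the 2 libraries, Cnr1 was -0.0702 (W), -0.00727 (S) and 0.416 (D), Napepld -0.00755 (W), Faah 0.215 (A), -0.0642 (S) and 0.562 (D), Daglb -0.0198 (S) and Abhd6 0.00789 (D). With the projection score, Cnr1 was -0.138 (W), -0.126 (S) and 0.29 (D), Napepld -0.0651 (W) and -0.0691 (S), Faah -0.229 (S) and 0.363 (D), Daglb -0.0372 (S) and Abhd6 0.000147 (D). Of 528 log2 changes without 1 library, 45 turned sign. They ranged, in W, from -0.0748 to 0.21 (Cnr1), -0.0119 to 0.181 (Napepld) and -0.351 to 0.135 (Faah), in A from -0.193 to 0.218 (Faah) and -0.0428 to 0.0425 (Dagla), in S from -0.0132 to 0.293 (Cnr1), -0.0695 to 0.391 (Faah), -0.0499 to 0.0436 (Dagla) and -0.0307 to 0.0412 (Daglb), and in D from -0.129 to 0.211 (Cnr1), -0.0526 to 0.141 (Napepld) and -0.219 to 0.267 (Faah).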
